A study of Mus musculus with 4 samples.

Results

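Islet cell barcodes that carried both Gcg and Ppy transcripts at high level are described here, in 4 libraries of islets from mouse pancreas, made from single cells. A barcode stands for 1 droplet and is taken as 1 cell. It was counted as a Gcg+Ppy barcode when it held at least 1000 UMIs (unique molecular identifiers, 1 per captured transcript) and 500 genes, at most 15% mitochondrial UMIs, at least 5% of its UMIs from Gcg and at least 5% from Ppy. Ins1 and Ins2 together had to stay under 15% and Sst under 5%. Of 26121 barcodes that passed the filters on UMIs, genes and mitochondrial UMIs, 436 met the rule.

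All mice were females on a C57b6/J background that received diphtheria toxin as newborns, 4 times at 48 hour intervals from postnatal day 2, and were weaned at day 21 to regular chow. They were either CCR2-DTR+/-, carrying a transgene that places the diphtheria toxin receptor on cells expressing the chemokine receptor CCR2, or WT littermates without it (CCR2-DTR-/-). Islets were taken at 1 month or 6 months, and each library (1 per genotype at each age) held 300 islets pooled from 2 to 3 mice. Since the WT mice received the toxin too, no group without toxin was analysed here. With 1 library per group there is no replicate of a genotype or an age, and differences between libraries are given with counting intervals only.

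Glucagon, encoded by Gcg, is the hormone of alpha cells and raises blood glucose by acting on the liver. Pancreatic polypeptide, encoded by Ppy, is the hormone of gamma (PP) cells, and peptide YY, encoded by Pyy, belongs to the same peptide family and is also made in islets and in gut endocrine cells. Most islet endocrine cells are defined by a single dominant hormone, and cells with more than 1 hormone are known from the developing islet and from adult islets.

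The 3 hormone genes that mark these cells lie on the minus strand of 2 chromosomes (GRCm38, GENCODE vM21). Gcg (ENSMUSG00000000394) spans chr2:62474530-62483650. Ppy (ENSMUSG00000017316) spans chr11:102099930-102101319, and Pyy (ENSMUSG00000017311) spans chr11:102106676-102107832, with 5356 bases between them. The 250 bases before each start are shown because the transcripts of these genes were counted together in the same barcodes. They are RefSeq sequences on GRCm38.p6, written 5′ to 3′ on the minus strand, with capitals for each TATAAA on either strand (its reverse complement is TTTATA).
Gcg, chr2:62483654-62483903: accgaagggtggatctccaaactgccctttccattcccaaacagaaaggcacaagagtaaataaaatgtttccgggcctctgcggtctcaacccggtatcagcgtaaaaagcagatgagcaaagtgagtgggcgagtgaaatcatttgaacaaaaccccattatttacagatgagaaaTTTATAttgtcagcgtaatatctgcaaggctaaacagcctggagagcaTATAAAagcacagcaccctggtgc
Ppy, chr11:102101320-102101569: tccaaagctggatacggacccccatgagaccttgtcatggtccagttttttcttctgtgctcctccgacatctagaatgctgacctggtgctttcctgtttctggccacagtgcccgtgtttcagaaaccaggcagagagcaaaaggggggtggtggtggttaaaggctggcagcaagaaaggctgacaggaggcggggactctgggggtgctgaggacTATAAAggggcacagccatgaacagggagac
Pyy, chr11:102107833-102108082: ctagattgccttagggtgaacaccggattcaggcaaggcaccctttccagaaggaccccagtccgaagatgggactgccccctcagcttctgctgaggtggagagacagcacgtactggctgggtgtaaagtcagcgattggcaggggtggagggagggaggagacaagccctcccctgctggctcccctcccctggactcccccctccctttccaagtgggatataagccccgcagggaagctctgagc
The Gcg window held 2 matches, 1 on each strand, the Ppy window 1 match that begins 31 bases before the start, and the Pyy window none. Among 32851 promoter windows of the same length, 12.4% held the motif on either strand. GC content was 44.8% for Gcg, 55.2% for Ppy and 61.2% for Pyy, against a median of 52.4% over all windows. A match is a match of letters only.

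The libraries held 60315217 to 121292320 UMIs over 5089 to 12444 barcodes. Mitochondrial UMIs exceeded the limit in 9.37% of the barcodes of young WT mice (1 month), in 18.4% of those of CCR2-DTR+/- mice of that age, and at the later age (6 months) in 12.2% of WT and 23.9% of CCR2-DTR+/- barcodes. Below, 4 values in a row are always in that order. Ccr2 gave 0, 2, 1 and 4 UMIs in all Gcg+Ppy barcodes of a library, and Ccr3, its neighbour in the genome, gave 0, 8, 0 and 9. In the more numerous alpha barcodes Ccr3 reached 0.0598, 9.65, 0.186 and 9.72 CPM (UMIs scaled to a total of 1000000), so both libraries labelled CCR2-DTR+/- stood apart from both WT libraries. The transgene itself is not a row of the files. Of the 120 barcode names that occur in more than 1 library, 5 belong to Gcg+Ppy barcodes and 1 is a Gcg+Ppy barcode in 2 libraries.

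Gcg+Ppy barcodes were found in every library, at 165, 101, 90 and 80 barcodes. They made up 1.81% (95% exact binomial interval 1.55 to 2.11), 1.13% (0.924 to 1.38), 2.42% (1.95 to 2.97) and 1.82% (1.45 to 2.26) of the kept barcodes. Those 4 libraries also held 2546, 2640, 762 and 950 alpha barcodes (Gcg at least 5%, Ppy under 5%) and 349, 283, 215 and 145 Ppy-only barcodes (Ppy at least 5%, Gcg under 5%), under the same limits for insulin and Sst. Within those insulin and Sst limits, 32.1%, 26.3%, 29.5% and 35.6% of barcodes with high Ppy therefore also had high Gcg. The intervals of these shares all overlapped. Of barcodes with high Gcg within the same limits, 6.09%, 3.69%, 10.6% and 7.77% also had high Ppy. Shares of high-Ppy and of high-Gcg barcodes are counted within these limits throughout. Both shares count the same Gcg+Ppy barcodes, so their order only restates that Ppy-only barcodes were fewer than alpha barcodes in each library. The share follows the limit: of high-Ppy barcodes it was 51.1%, 45.2%, 44.8% and 50.7% at limits of 2%, and 10.8%, 8.90%, 17.0% and 12.5% at 10%.

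The number of Gcg+Ppy barcodes was set beside the number expected if each hormone were drawn independently among the barcodes with at least 1 hormone past its limit. Regardless of any other hormone present, observed over expected was 0.686, 0.592, 0.821 and 0.920 for Gcg with Ppy. For Gcg with Sst it was 0.25, 0.135, 0.136 and 0.225. Insulin with Gcg gave 0.135, 0.127, 0.0813 and 0.141, and Ppy with Sst 1.77, 0.860, 0.608 and 1.25. Gcg therefore met Ppy more often than it met Sst or insulin on this scale, in each of the 4 libraries. The limit was 5% for Gcg, Ppy and Sst but 15% for insulin, so the insulin ratio rests on another limit. For Gcg with Ppy the ratio fell at a limit of 10% (0.282, 0.223, 0.508 and 0.362). At that limit Gcg with Sst gave 0.0185, 0, 0 and 0. Ppy with Sst gave 0.0771, 0, 0.0415 and 0 there, and insulin with Gcg 0.0465, 0.0543, 0.0409 and 0.0818.

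**Figure D1:**
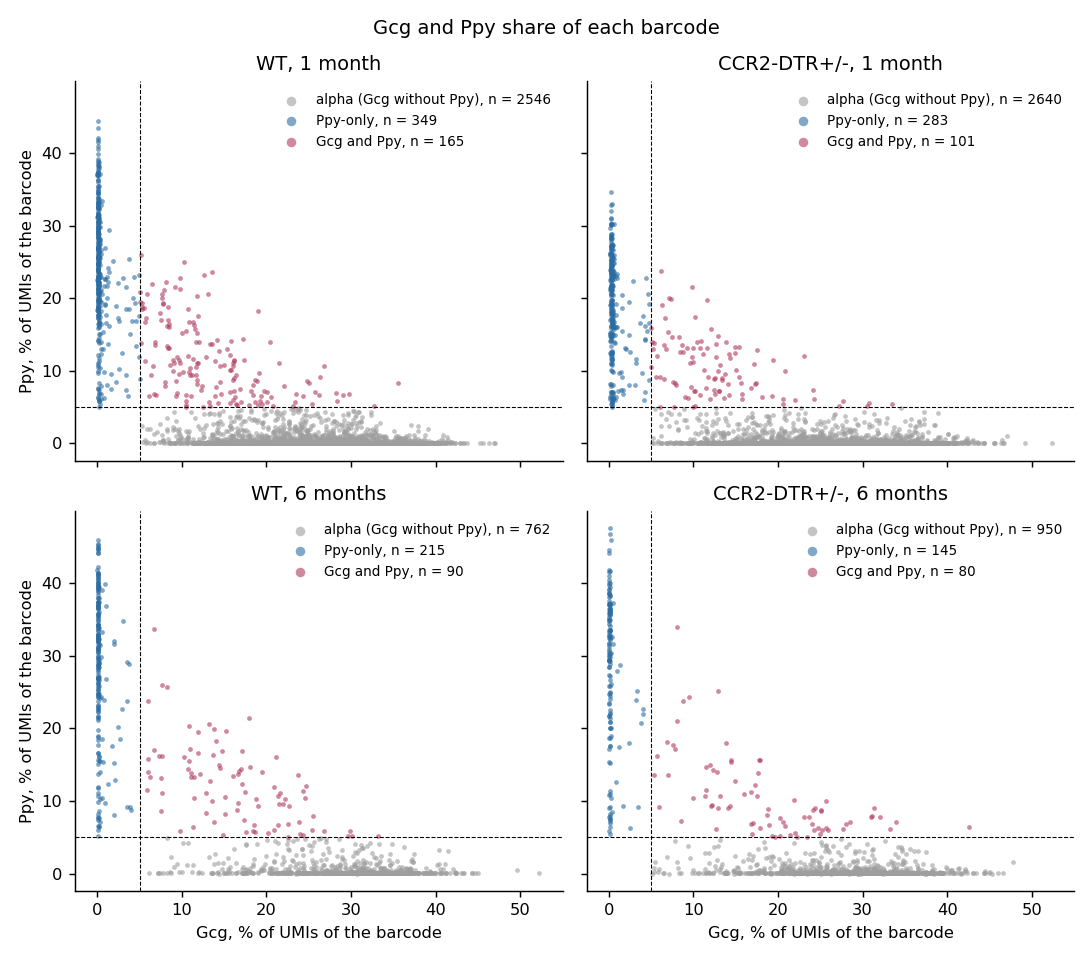
Share of UMIs from Gcg (horizontal axis, percent) and from Ppy (vertical axis, percent) in each barcode of the 3 classes, 1 panel per library; dashed lines mark the limits of 5%. The 436 Gcg+Ppy barcodes fill the field between both lines, without a gap towards the alpha or the Ppy-only barcodes.

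The hormones were used to choose the barcodes, so their levels are a description. Median Gcg was 12.0%, 11.7%, 16.3% and 17.8% of UMIs in Gcg+Ppy barcodes, which is 45.9%, 44.7%, 53.9% and 62.2% of the median of alpha barcodes. Median Ppy was 10.6%, 10.0%, 11.4% and 8.91%, or 44.2%, 51.5%, 38.3% and 29.7% of the median of Ppy-only barcodes. Gcg, Ppy and Pyy together took a median of 31.4%, 29.9%, 37.2% and 35.1% of the UMIs of a barcode. Each hormone was thus present at a substantial fraction of its level in the barcodes with only that hormone.

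Free RNA in the droplets was gauged from endothelial barcodes, which do not make these hormones. Their median Gcg was 0.182%, 0.441%, 0.156% and 0.138% and their median Ppy 0.0398%, 0.0484%, 0.0503% and 0.0288%, at median depths of 3219, 4779, 6286 and 5847 UMIs. Ppy in alpha barcodes had medians of 0.0682%, 0.0637%, 0.0797% and 0.0634%, and Gcg in Ppy-only barcodes 0.137%, 0.341%, 0.0972% and 0.0809%. Both limits of 5% lay far above those levels.

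The balance between the 2 hormones varied widely among members. Ppy made up a median of 46.0%, 45.1%, 42.1% and 30.7% of Ppy plus Gcg, lowest in the CCR2-DTR+/- 6-month library. Over the 8326 barcodes of all 3 classes, 79.0% had a Ppy share under 10%, 10.9% had 90% or more, and 838 barcodes (10.1%) lay between. The 5% limits did not fall in a gap: with high Ppy, 55 barcodes had Gcg at 2.5 to 5% and 54 at 5 to 7.5%. With high Gcg, 312 had Ppy at 2.5 to 5% and 132 at 5 to 7.5%, with median Pyy of 3.07% and 4.18%.

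The label was checked against Pyy, a marker that the rule did not use. Pyy took a median of 5.46%, 6.15%, 6.52% and 5.83% of UMIs in Gcg+Ppy barcodes. In alpha barcodes the median was 0.424%, 0.303%, 0.944% and 0.710%, and in Ppy-only barcodes 11.5%, 11.4%, 8.91% and 10.1%. Pyy was at least 1% in 432 of the 436 barcodes and at 0 in none. A Pyy UMI was also present in 98.2% to 100% of alpha and 65.1% to 89.6% of endothelial barcodes, so presence alone does not mark the members. The third quartile of alpha barcodes ran from 0.891% (CCR2-DTR+/- at 1 month) to 2.12% (WT at 6 months), so some of them passed 1% too. The median Pyy share of Gcg+Ppy barcodes lay between those of alpha and Ppy-only barcodes in each library.

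Depth and gene number were compared because 2 cells captured in 1 droplet would add their RNA. Median UMIs of Gcg+Ppy barcodes were 10306, 11021, 21880.5 and 20637, against 8562, 8193.5, 20499.5 and 18368 in alpha and 8829, 8574, 20051 and 18735 in Ppy-only barcodes. Gcg+Ppy barcodes were deeper than alpha barcodes in 4 of 4 libraries, by 1.20, 1.35, 1.07 and 1.12 times (two-sided exact sign-flip permutation test over libraries, p = 0.13, the smallest that 4 libraries allow). Counted outside the hormone genes, the ratios to alpha were 1.14, 1.23, 0.983 and 1.01 (p = 0.375 in the same exact test). Outside the hormone genes, the excess over alpha barcodes therefore lay mainly in the 1-month libraries. Against Ppy-only barcodes those ratios were 1.32, 1.29, 1.16 and 1.15, above 1 in 4 of 4 libraries (exact sign-flip test, p = 0.13). Genes per barcode at full depth were 1.13, 1.16, 1.03 and 1.02 times those of alpha barcodes. They were 1.22, 1.16, 1.08 and 1.07 times those of Ppy-only barcodes.

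Against the sum of an alpha and a Ppy-only median, median UMIs of Gcg+Ppy barcodes reached 0.593, 0.657, 0.540 and 0.556. All 4 lay below 1 (exact sign-flip test, p = 0.13). Single members varied: outside the hormone genes, 29.1%, 20.8%, 21.1% and 16.2% of Gcg+Ppy barcodes reached the sum of both medians. So did 11.5%, 4.77%, 5.91% and 9.47% of alpha and 6.59%, 5.30%, 4.19% and 6.21% of Ppy-only barcodes. Thinned to 2000 UMIs outside the hormone genes, Gcg+Ppy barcodes had 1.03 times the genes of alpha and 0.989 times those of Ppy-only barcodes (geometric means over 4 libraries, exact sign-flip permutation test, each p = 0.13). Gene number at equal depth was thus within a few percent of either single-hormone class. Those classes were themselves close, at medians of 1155, 1172, 1148 and 1143 genes in alpha and 1188.5, 1205, 1211 and 1199.5 in Ppy-only barcodes. Other hormone pairs were not thinned, so this measure cannot say whether a barcode holds 1 or 2 cells.

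Other hormone pairs gave a scale for these depths. Barcodes with high insulin and Gcg had 2.76, 2.46, 2.02 and 0.940 times the median UMIs of alpha barcodes, and those with Gcg and Sst 1.72, 1.72, 1.62 and 1.59 times (68, 37, 16 and 26 barcodes). Barcodes with Ppy and Sst had 0.746, 0.750, 0.661 and 0.637 times. The Gcg+Ppy ratios lay below those of Gcg with Sst in each library, and below those of insulin with Gcg in all but the CCR2-DTR+/- 6-month library.

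A deep tail was present among the members. In alpha barcodes, 10% lie by construction above the 90th percentile of UMIs outside the hormone genes in their own library. Of the Gcg+Ppy barcodes, 41, 39, 27 and 13 lay above it (24.8%, 38.6%, 30.0% and 16.2%), 120 of 436 in all. Ppy-only barcodes above it made up 6.02%, 11.3%, 4.65% and 6.21%. In contrast, 38.2%, 31.7%, 51.1% and 47.5% of Gcg+Ppy barcodes lay below the alpha median. The Scrublet doublet score, which compares each barcode with simulated doublets, passed 0.25 in 6, 3, 2 and 1 Gcg+Ppy barcodes (3.64%, 2.97%, 2.22% and 1.25%). It passed in 1.53%, 1.67%, 2.89% and 2.84% of alpha and in 1.15%, 0.707%, 3.26% and 4.83% of Ppy-only barcodes. The median score was 1.57, 1.25, 1.69 and 1.18 times that of alpha barcodes, higher in 4 of 4 libraries, and 4.56, 2.39, 2.38 and 0.957 times that of Ppy-only barcodes. Among barcodes with insulin and Gcg the score passed 0.25 in 71.7%, 67.4%, 40.0% and 39.1%. With insulin and Ppy it did so in 17.5%, 15%, 22.2% and 27.3%. With Gcg and Sst, whose median depth exceeded that of alpha in each library, it did so in 1.47%, 0, 0 and 3.85%. Few of these deep Gcg and Sst barcodes thus passed 0.25. No barcode was removed on this score, and how many Gcg+Ppy barcodes hold 2 cells was not tested.

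**Figure D2:**
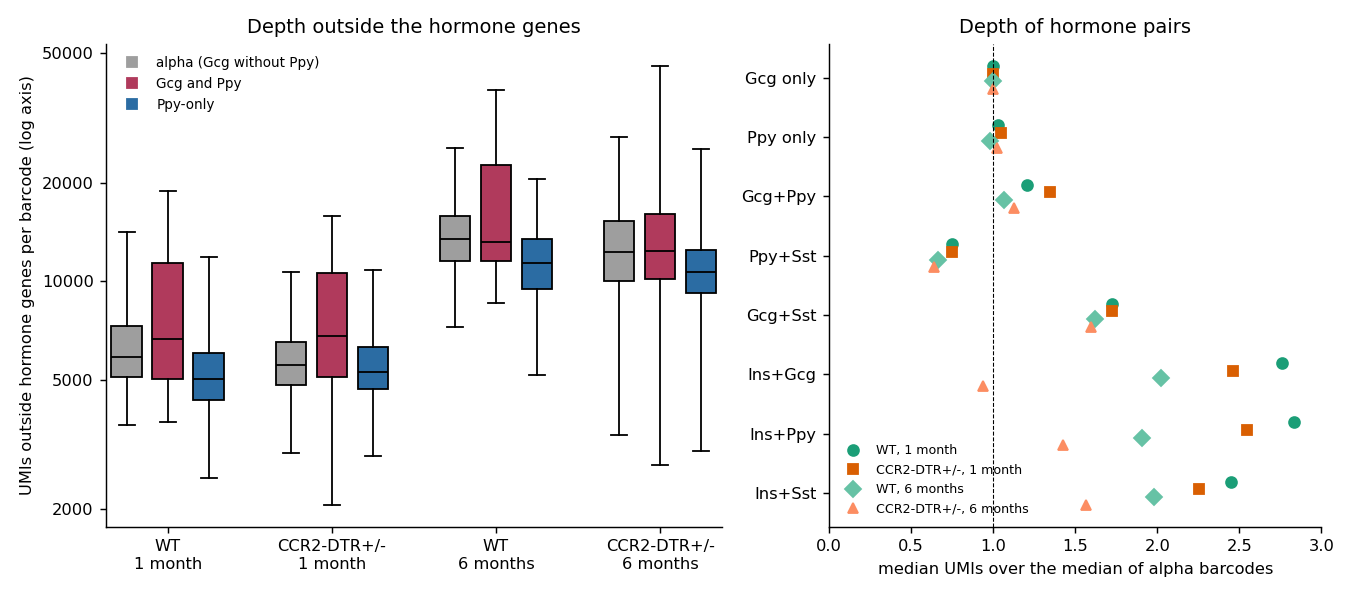
Left, UMIs outside the hormone genes per barcode (log axis) for alpha, Gcg+Ppy and Ppy-only barcodes in each library; boxes show quartiles and median, whiskers the 5th to 95th percentiles. Right, median UMIs of each hormone class and pair over the median of alpha barcodes, 1 point per library: Gcg+Ppy points sit at 1.07 to 1.35, Gcg+Sst points at 1.59 to 1.72.

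For gene comparisons, counts were summed per library and class, leaving out the genes of the rule, and the classes were compared within libraries. Levels below are TMM-scaled CPM of the summed counts, as mean ± SD over 4 libraries. The classes were cut on Gcg and Ppy, so a gene whose level follows either hormone differs between classes by construction. The 4 libraries, each of another genotype and age, served as replicates of a class. A call rests on their common difference and can still be carried by 1 library. Over 11312 genes tested, 537 were higher and 486 lower in Gcg+Ppy than in alpha barcodes (edgeR quasi-likelihood test, Benjamini-Hochberg adjusted p under 0.05), that is 4.75% and 4.3%, or 9.04% together. Against Ppy-only barcodes 706 were higher (6.24%) and 614 lower (5.43%), or 11.7% together. Ppy-only and alpha barcodes differed in 4350 genes (38.5%), 19.5% higher and 19.0% lower in Ppy-only barcodes. The split by direction depended on scaling: by total counts instead of TMM, it was 359 higher and 956 lower against alpha, and 1189 higher and 345 lower against Ppy-only. Without Pyy in the table, total-count scaling gave 849 higher and 317 lower, and 595 higher and 770 lower.

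Against alpha barcodes, the genes that were higher in Gcg+Ppy barcodes were led by Tspan8, Pyy and Folr1. Tspan8, a tetraspanin of the cell surface, stood at 599, 640, 410 and 340 CPM in Gcg+Ppy barcodes. It was 89.0, 78.9, 74.0 and 50.9 CPM in alpha and 1379, 1300, 1197 and 1014 CPM in Ppy-only barcodes. No library of one class overlapped with another class, and Tspan8 was higher than in alpha by 2.74 ± 0.07 (log2, SE; edgeR adjusted p 3.42e-20) and differed from Ppy-only by -1.34 ± 0.07 (adjusted p 1.80e-14).

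Pyy itself reached 107832, 101949, 109208 and 96321 CPM in Gcg+Ppy barcodes. In alpha barcodes it was 13890, 11085, 27083 and 21081 CPM, and in Ppy-only barcodes 204374, 187436, 170186 and 192567 CPM. The differences were 2.56 ± 0.14 against alpha (edgeR adjusted p 8.74e-13) and -0.87 ± 0.13 against Ppy-only (3.33e-05). The summed Pyy level of Gcg+Ppy barcodes thus lay between those of the other classes in each library. Folr1, a folate receptor, followed the same order at 260, 246, 245 and 226 CPM, against means of 57.4 in alpha and 505 in Ppy-only barcodes (2.09 ± 0.07, edgeR adjusted p 6.95e-18).

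The other genes named by rank against alpha were smaller in level. Sult1d1, a sulfotransferase, was 105 ± 11.2 CPM against 41.8 in alpha (1.32 ± 0.08). Cd9, another tetraspanin, was 139 ± 37.0 against 57.3 (1.28 ± 0.09), and Clu, the secreted chaperone clusterin, 212 ± 72.6 against 102 (1.06 ± 0.11). Pbx3, a homeodomain factor, was 50.4 against 20.8 CPM (1.27 ± 0.12). Fxyd3, Hspb1 and Stxbp6 were also higher, by 1.19, 1.14 and 1.09. Each of these 10 genes was higher still in Ppy-only barcodes. Only Hspb1 changed sign under an alternative, among barcodes below the alpha median depth (-0.65).

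Genes lower than in alpha barcodes included defining alpha products. Ttr, transthyretin, an abundant secreted protein of alpha cells, was at 11352, 12945, 18915 and 21376 CPM in Gcg+Ppy barcodes, against 37554 ± 8428 in alpha and 3247 ± 417 in Ppy-only barcodes. Irx1, a homeobox factor of alpha cells, was at 104, 86.6, 87.2 and 91.1 CPM, against 187 ± 14.0 and 8.33 ± 2.07. Both were lower than in alpha, by -1.23 ± 0.08 and -1.0 ± 0.06 (edgeR adjusted p 1.27e-11 for each). Slc38a5, a glutamine transporter linked to alpha cell growth, was 48.0 ± 23.6 against 118 CPM (-1.33 ± 0.14). Upk3a (-2.01), Olfm1 (-1.27), Dapl1 (-1.18), Ang (-1.13), Col27a1 (-1.06) and Nxph1 (-1.02) were lower too, and each was lower still in Ppy-only barcodes. The exception in this group was Cd74, an MHC class II chaperone of antigen-presenting cells, at 2.62, 7.97, 3.97 and 55.2 CPM against a mean of 62.8 in alpha barcodes. In the CCR2-DTR+/- 6-month library 67 of its 74 UMIs came from 1 barcode.

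Against Ppy-only barcodes, the genes named as higher were also higher still in alpha barcodes. Slc30a8, the zinc transporter of secretory granules, was at 714, 701, 795 and 789 CPM in Gcg+Ppy barcodes. It was 1190, 1234, 1281 and 1211 CPM in alpha but 151, 165, 205 and 151 CPM in Ppy-only barcodes. The classes did not overlap in any library, and Slc30a8 was higher than in Ppy-only barcodes by 2.15 ± 0.06 (edgeR adjusted p 2.64e-19). Irx1 was higher by 3.48 ± 0.14 (edgeR adjusted p 1.41e-16) and Ttr by 2.27 ± 0.08. Slc7a2, a cationic amino acid transporter, was at 674 ± 74.3 against 186 (1.85 ± 0.06). Higd1a (2.77), Oxtr, the oxytocin receptor (2.29), Wnk3 (2.17), Dpp10 (1.92) and Tmsb15b2 (1.88) were higher too.

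Genes lower than in Ppy-only barcodes were Tspan8, Limch1, Hadh, Pcsk1, Hspb1, Bace2, Cela1, Flt1, Cd74 and H2-Aa. Cela1, an elastase gene, is not on the acinar marker list whose members were left out, and the part of free RNA in its level was not tested. Limch1, an actin-binding protein, had 24.9, 34.2, 28.3 and 30.6 CPM in Gcg+Ppy barcodes against 3.56 in alpha and 95.2 ± 8.30 in Ppy-only barcodes (-1.72 ± 0.16, edgeR adjusted p 1.28e-08). Hadh, an enzyme of fatty acid oxidation, was at 78.4 against 49.9 and 195 CPM. Pcsk1, the prohormone convertase of insulin-type processing, was at 36.1 against 22.6 and 82.2 CPM. Endothelial Flt1 and the MHC class II genes Cd74 and H2-Aa differed with SDs as large as their means in Gcg+Ppy barcodes (18.2 ± 20.2, 17.4 ± 25.3 and 7.53 ± 12.5 CPM), and 29 of 35 H2-Aa UMIs of the CCR2-DTR+/- 6-month library came from 1 barcode.

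Without the library term, 158 genes were higher and 102 lower against alpha, and 350 and 193 against Ppy-only. Without the 120 deep barcodes, and barcodes equally deep in the other classes, the counts were 306 and 265 against alpha, and 546 and 403 against Ppy-only. Leaving out 1 library gave 306 lower against alpha without the WT 1-month and 305 without the WT 6-month library, and 396 lower against Ppy-only without the CCR2-DTR+/- 6-month library.

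**Figure D3:**
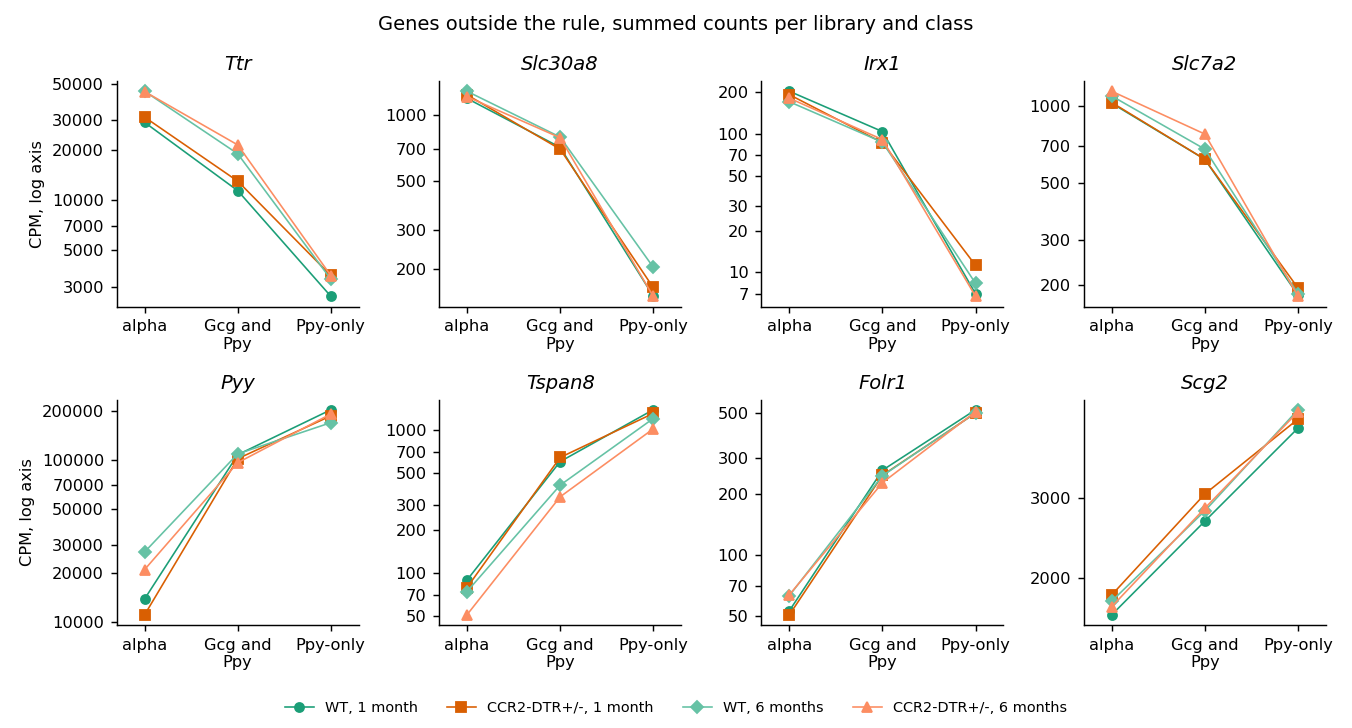
TMM-scaled CPM (log axis) of 8 genes outside the rule in alpha, Gcg+Ppy and Ppy-only barcodes, 1 line per library. In each gene and library the Gcg+Ppy value lies between the 2 single-hormone classes, for example Slc30a8 at 701 to 795 CPM and Tspan8 at 340 to 640 CPM.

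Where a gene lies between the classes was read as a position, 0 at the alpha level and 100 at the Ppy-only level. Genes that differed at least 4-fold between alpha and Ppy-only barcodes were chosen in the libraries of 1 age and read in those of the other. For genes higher in Ppy-only barcodes the median position of Gcg+Ppy barcodes was 39.5, 40.8, 41.7 and 35.9 (33, 34, 39 and 42 genes). For genes higher in alpha barcodes it was 50.6, 54.3, 56.2 and 48.3 (62, 63, 52 and 52 genes). Means were 39.5 ± 2.5 and 52.3 ± 3.6 (SD, n = 4), so both sets sat near the middle of the scale in each library. Since Gcg and Ppy defined the classes, an intermediate position is partly set by the rule. With CPM not scaled by TMM the means were 41.5 and 54.6, and on that scale without deep barcodes 35.3 and 56.5.

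**Figure D4:**
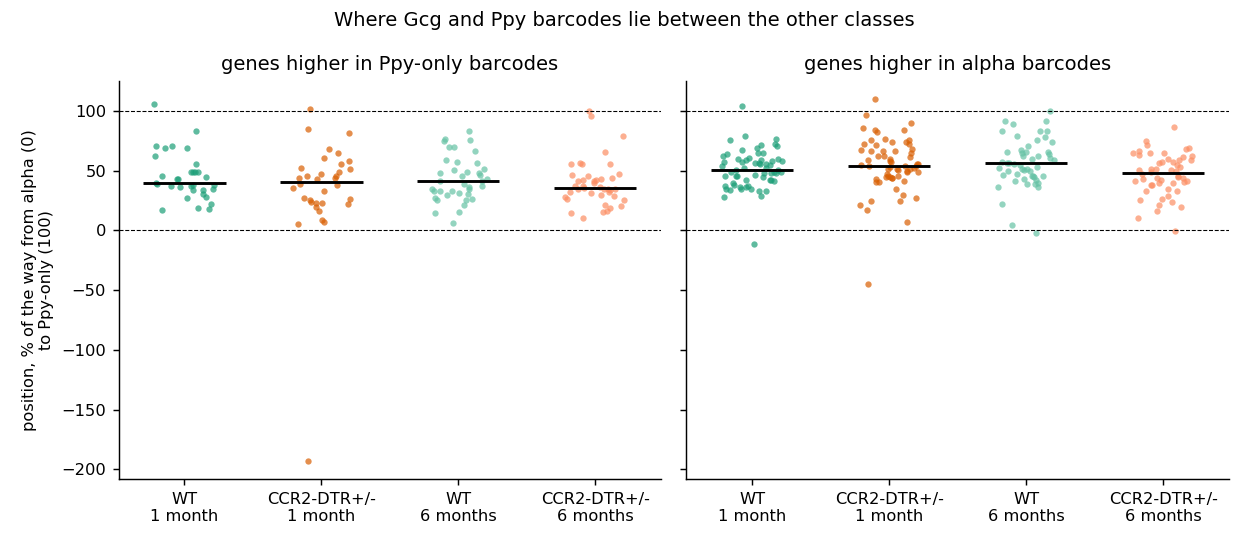
Position of each gene in Gcg+Ppy barcodes on a scale from the alpha level (0) to the Ppy-only level (100), per library, for genes chosen in the libraries of the other age; black bars mark medians, which lie at 35.9 to 41.7 for genes higher in Ppy-only and 48.3 to 56.2 for genes higher in alpha barcodes.

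Genes extreme in the Gcg+Ppy barcodes in all 4 libraries were counted, and the count expected without any difference between classes was not computed. Of the 11312 genes, 180 (1.59%) were highest of the 3 classes in all 4 libraries, 209 (1.85%) lowest and 1043 (9.22%) between. Among genes with at least 50 CPM in 1 class, lowest in all 4 libraries and over 0.25 (log2) from either class, those called lower than in both were Cd74, H2-Aa, AY036118, Nipal1, a magnesium transporter (94.2 against 115 and 116 CPM), and Timm23, a mitochondrial import subunit (52.5 against 64.4 and 64.6 CPM). By the same limits none was called higher than in both: Pla2g6 and Thap2 were highest in all libraries, but not called against each class.

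Whether alpha and Ppy-only genes occurred in the same barcode was read from Slc7a2, higher in alpha, and Tspan8, higher in Ppy-only barcodes, a pair chosen after their values were seen. Each barcode was thinned to 2000 UMIs outside the hormone genes. Both genes had a UMI in 40.2%, 47.9%, 33.3% and 40.5% of Gcg+Ppy barcodes. This was so in 9.13%, 9.36%, 7.81% and 6.95% of alpha and in 22.6%, 28.7%, 24.6% and 29.0% of Ppy-only barcodes. The Gcg+Ppy share was the highest in each library, and its 95% exact binomial interval lay clear of that of Ppy-only barcodes at 1 month but overlapped with it at 6 months. The endothelial share was 0.398%, 0.272%, 0 and 0, with exact upper bounds of 1.61% and 1.23% for the last pair. Median depths outside hormone genes were 6645, 6815, 13201.5 and 12347.5 in Gcg+Ppy and 3125.5, 4528, 5993 and 5571.5 in endothelial barcodes.

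Slc7a2 alone had a UMI in 69.5%, 66.7%, 75.6% and 72.2% of thinned Gcg+Ppy barcodes, 83.0%, 83.9%, 85.6% and 86.1% of alpha, and 25.9%, 32.4%, 28.4% and 36.2% of Ppy-only barcodes. Endothelial barcodes had 3.19%, 6.52%, 4.41% and 5.02%, so Slc7a2 in Ppy-only barcodes was above this background. Tspan8 had a UMI in 59.1%, 75%, 45.6% and 53.2% of Gcg+Ppy barcodes, against 12.2%, 11.5%, 9.67% and 7.82% of alpha barcodes. Without thinning, both genes were seen in 83.0%, 81.2%, 85.6% and 82.5% of Gcg+Ppy barcodes.

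**Figure D5:**
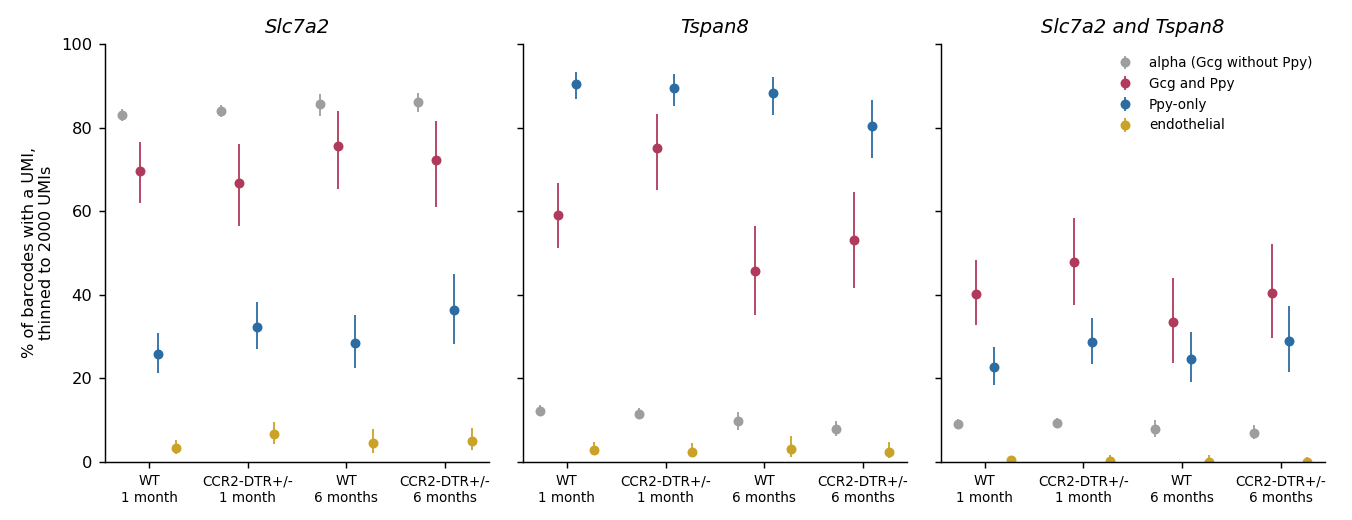
Percent of barcodes with a UMI of Slc7a2, of Tspan8 and of both, after thinning to 2000 UMIs outside the hormone genes, for alpha, Gcg+Ppy, Ppy-only and endothelial barcodes in each library; bars are 95% exact binomial intervals. Both genes together reach 33.3% to 47.9% in Gcg+Ppy barcodes, 22.6% to 29.0% in Ppy-only and at most 9.36% in alpha barcodes.

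Among the Gcg+Ppy barcodes, gene levels followed the hormone balance. Barcodes were divided by their Ppy share of Ppy plus Gcg into a Gcg-leaning group (Gcg over 2 times Ppy), a Ppy-leaning group (Ppy over 2 times Gcg) and an even group. In the order Gcg-leaning, even, Ppy-leaning, mean CPM over the libraries is given as a description. Pyy was 80156, 104623 and 134322 CPM, Tspan8 345, 527 and 663, and Nkx6-1 72.6, 88.6 and 131. In the opposite direction ran Ttr at 21649, 14899 and 8011 CPM and Irx1 at 113, 86.5 and 65.1. The chromogranin Chga was at 8509, 6731 and 5037 CPM. Each of these 6 genes kept its direction from the Gcg-leaning to the Ppy-leaning group in 4 of 4 libraries. The Ppy-leaning groups held 28, 14, 10 and 9 barcodes, so their single values are imprecise.

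Of 28 islet transcription factors, 26 were tested: 3 were higher and 7 lower than in alpha barcodes, and 9 were higher and 4 lower than in Ppy-only barcodes. Over all genes the shares were 4.75% and 4.3%, and 6.24% and 5.43%. Nkx6-1, a beta cell factor that is also in Ppy-only barcodes, was at 88.9 against 51.6 and 148 CPM. Irx2 was at 128 CPM, against 210 in alpha and 36.7 in Ppy-only barcodes. Neurod1 was at 217 against 277 and 162, and Rfx6 at 63.4 against 83.9 and 34.6. Meis2 was at 383 against 327 and 438 CPM. Further called factors were Isl1 and Myt1 against alpha, and Myt1, Rfx3, Etv1, Pdx1 and Insm1 against Ppy-only barcodes. Neurog3, the endocrine progenitor factor, was at 6.57 CPM, and the call was missed in either comparison. Pax6, Nkx2-2, Mafa and Hhex were not called either.

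Of 12 genes for prohormone processing and granins, 3 were higher and 7 lower than in alpha, 4 higher and 4 lower than in Ppy-only barcodes. Over all genes, 4.75% were higher and 4.3% lower than in alpha, and 6.24% and 5.43% than in Ppy-only barcodes. Scg2, secretogranin II, was at 2851 ± 163 CPM against 1752 and 4531 (0.70 ± 0.04 and -0.67 ± 0.05). Chgb was at 1235 against 980 and 1992 CPM. Pcsk2, the convertase that makes glucagon, was at 4213 against 4730 and 3046 CPM (-0.17 ± 0.04 and 0.47 ± 0.05). Vgf was low at 11.4 against 35.6 and 3.92 CPM. Pcsk1, Pcsk2, Pcsk1n, Cpe, Chgb, Scg2 and Vgf were called in opposite directions against the 2 classes, so their levels lay between them. Among 17 peptides, 4 were tested: Pyy, Iapp (6445 ± 2297 CPM, not called against alpha, -0.83 against Ppy-only), Ucn3 and Ghrl. Ghrl, ghrelin, was 9.81, 7.97, 0.567 and 0 CPM in Gcg+Ppy barcodes, against 555, 11.2, 0.541 and 0.312 CPM in alpha barcodes, where the WT 1-month library alone was high. Ghrl was called lower than in alpha, by -5.14 ± 0.56.

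Of 21 receptors, 13 were tested, with 2 higher and 2 lower than in alpha, and 4 higher and 2 lower than in Ppy-only barcodes. For these and the next lists, the shares over all genes are again 4.75% higher and 4.3% lower against alpha, and 6.24% and 5.43% against Ppy-only. Sstr2, a somatostatin receptor, was at 12.5 against 27.1 and 4.37 CPM, and Sstr3 at 112 against 94.0 and 107 CPM. Gpr119 was at 51.7 CPM and higher than in Ppy-only barcodes by 0.55. Glp1r was lower than in Ppy-only barcodes by -0.62. Of 12 excitability genes, 11 were tested, with 2 higher and 0 lower than in alpha, and 1 higher and 2 lower than in Ppy-only. Of 14 unfolded protein response genes, 13 were tested: Dnajb9 and Xbp1 were higher than in alpha and Calr lower, and Hspa5, Dnajb9 and Pdia6 were lower than in Ppy-only. Of 8 immediate early genes, 3 (Fosb, Jun and Ier2) were higher than in alpha. Egr1, Atf3 and Dusp1 were higher and Jun lower than in Ppy-only. Of 10 cell cycle genes, 6 were tested, with none called against alpha and Cdk1 lower than in Ppy-only.

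Marker lists of the other islet and tissue cells gave the following. Alpha cell genes were 1 higher and 7 lower of 12 than in alpha barcodes (median -0.42, against -0.003 over all genes), and 8 higher of 12 than in Ppy-only barcodes (median 1.13). Gamma cell genes were 4 higher of 9 tested against alpha (median 0.24) and 2 higher and 5 lower against Ppy-only (median -0.19). Beta cell genes were 1 higher and 2 lower of 11 against alpha, and 1 higher and 6 lower against Ppy-only. Delta cell genes were 1 higher and 1 lower of 5 against alpha. Endothelial genes had none called against alpha and 3 lower against Ppy-only, with sums of 17.0 to 187 CPM in Gcg+Ppy, 80.4 to 166 in alpha and 69.6 to 311 in Ppy-only barcodes. Macrophage genes had 3 of 5 lower than in alpha and 4 lower than in Ppy-only, with sums of 95.6 to 126 CPM. Acinar genes had 4 of 11 lower in each comparison, with sums of 13.7 to 254 CPM, and both high sums belonged to CCR2-DTR+/- libraries in all classes. Mesenchymal genes had 1 of 4 lower than in alpha and 2 higher than in Ppy-only, Schwann genes 1 of 2 higher than in alpha, and ductal genes 1 of 4 higher than in alpha and 3 lower than in Ppy-only. The ductal gene higher than in alpha was Spp1 (126 against 64.8 CPM). Of the lymphoid list 1 gene was tested and not called. These lists' part in the class differences was not tested.

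Between libraries, the share of Gcg+Ppy barcodes among kept barcodes was 0.625 times the WT share in CCR2-DTR+/- mice at 1 month (95% counting interval 0.483 to 0.806) and 0.753 times at 6 months (0.550 to 1.03). Among barcodes with high Gcg within the insulin and Sst limits it was 0.605 (0.468 to 0.780) and 0.735 times (0.537 to 1.00). Among barcodes with high Ppy it was 0.819 (0.633 to 1.06) and 1.20 times (0.880 to 1.65). The genotype ratio at 1 month thus lay below 1 on the first 2 denominators, and both intervals on the third included 1. From 1 to 6 months, the share among high-Gcg barcodes was 1.74 times (1.33 to 2.26) in WT and 2.11 times (1.55 to 2.85) in CCR2-DTR+/- mice. Among kept barcodes it was 1.33 (1.02 to 1.74) and 1.61 times (1.18 to 2.18). Among high-Ppy barcodes it was 0.919 (0.703 to 1.20) and 1.35 times (0.995 to 1.83), and both of these intervals included 1. Depth differs between the ages, with median kept UMIs of 11536 and 9036.5 at 1 month and 13126.5 and 15037 at 6 months, and its part in the difference was not tested.

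Within Gcg+Ppy barcodes, few genes passed 2-fold between libraries. CPM here are of summed counts without TMM, and a gene counted with at least 50 CPM in 1 library and 10 UMIs over both. At 1 month, 8 of 3743 genes were past 2-fold higher in the CCR2-DTR+/- library (0.214%) and 6 lower (0.16%). At 6 months, 5 of 3669 were higher (0.136%) and 3 lower (0.0818%). With age, 14 were higher (0.38%) and 16 lower (0.434%) in WT, and 29 (0.767%) and 28 (0.74%) in CCR2-DTR+/- barcodes.

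At 1 month, Glp1r, the receptor for GLP-1, had 49 UMIs in Gcg+Ppy barcodes of the CCR2-DTR+/- mice against 25 in those of the WT, or 56.6 against 16.4 CPM (log2 ratio 1.79, interval 1.07 to 2.55), and alpha barcodes differed by 1.13. Without barcodes of a Scrublet score above 0.25, or with barcodes weighed equally, Glp1r was under the floor. Pcsk1 was at 62.3 against 24.9 CPM (1.33, and 1.33 in alpha barcodes). Of 6 beta cell genes past the floor, 5 had intervals above no difference (median log2 ratio 1.0, against 0.0308 over all genes past the floor). The share of all genes with such an interval was not counted. Insulin UMIs moved with the beta cell genes, with medians of 0.990% (WT) and 2.06% (CCR2-DTR+/-) of UMIs in Gcg+Ppy barcodes. The part of free insulin RNA in this was not tested. Lower genes were Spp1 (58.9 against 165 CPM), with 166 of its 252 WT UMIs in 1 barcode, Apoe, with 67 of 165 in 1 barcode, and the chaperone Dnajb1 (71.6 against 161 CPM, -1.17). Cenpf and Stmn1, genes of dividing cells, were higher, with 29 of 46 and 44 of 109 UMIs in 1 barcode, and Cenpf was under the floor in the same settings.

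At 6 months, Ier2 and Zfp36, immediate early genes, were higher in the CCR2-DTR+/- library (168 against 73.8 CPM and 138 against 66.5 CPM). Their log2 ratios were 1.18 and 1.06, and alpha barcodes gave 1.18 and 1.06 as well. All 7 immediate early genes past the floor had intervals above no difference (median 0.73, against -0.0096 over all genes past the floor). The share of all genes with such an interval was not counted. From 1 to 6 months in WT all 7 immediate early genes were lower (median -0.62, against -0.00063 over all genes past the floor). These genes also respond to tissue dissociation, and handling of a library cannot be told apart from genotype or age. Cd74 and Ambp were higher, each mostly through 1 barcode (67 of 74 and 156 of 187 UMIs), and Cd74 was under the floor without high Scrublet scores.

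With age, Mt1 and Mt2, metallothioneins that bind metal ions, were higher in CCR2-DTR+/- Gcg+Ppy barcodes (345 against 92.3 and 69.1 against 15 CPM, log2 ratios 1.90 and 2.20). Irs2, an insulin receptor substrate, was higher in WT (68.7 against 23.5 CPM, 1.55). Alpha barcodes gave 1.71, 1.92 and 1.14, so these differences were not confined to the Gcg+Ppy barcodes. Lower at 6 months were Sparc and Rgs5, of mesenchymal and endothelial cells, with 4 against 158 and 3 against 91 UMIs in WT and 4 against 76 and 1 against 64 in CCR2-DTR+/-. In the latter library 67 of 76 Sparc and 62 of 64 Rgs5 UMIs at 1 month sat in 1 barcode each, and in the WT library 35 of 158 and 54 of 91. Without barcodes of a Scrublet score above 0.25, both genes were under the floor in the WT comparison. Mki67, a marker of division, had 7, 36, 0 and 0 UMIs over all Gcg+Ppy barcodes of a library, at most 15 of them from 1 barcode.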

How the data were processed

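Single-cell RNA of pancreatic islets was measured in 4 libraries, 1 per genotype at each age. The deposited tables are unnormalized UMI counts of 32285 genes in each barcode, made by the authors with Cell Ranger 5.0.1 on mm10, per the submitters' processing notes. The annotation release used for counting is not given in the sources used here. Further deposited files name barcodes and genes and hold other text, with no measurement. The authors had already called barcodes as cells.

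Barcodes were kept from 1000 UMIs and 500 genes with at most 15% mitochondrial UMIs, and classed by their share of hormone UMIs. Members and gene lists were chosen with earlier results of these data known. Doublets were scored with Scrublet (scanpy 1.11.5) and kept. Counts were summed per library and class, leaving out 18 genes (Gcg, Ppy, Ins1, Ins2, Sst and 13 mitochondrial genes), and tested with edgeR 4.0.16 in R 4.3.3 (TMM, filterByExpr, quasi-likelihood test, library as block, Benjamini-Hochberg adjustment over all genes). The library as block pairs the classes, since the 3 sums of a library come from the same pool of mice. Genes named by rank are the 10 with the largest fold in each direction among those with adjusted p under 0.05, one direction in all 4 libraries and at least 50 CPM in 1 class. Predicted, ribosomal, mitochondrial and haemoglobin genes and the members of the acinar marker list were left out. Between libraries, the 5 highest and lowest CPM ratios were named, with exact conditional Poisson intervals. Intervals are 95% and cover counting error only, and the depth of Gcg+Ppy sums limits what they can show. DESeq2 1.42.0, other scalings, filters, limits and depth cuts, and leaving out each library, were the alternatives. The summed-count test was tested on simulated data. Single-gene results for a few genes that meet these rules are not reported here.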

Additional observations from a re-analysis of the deposited data

Results flagged for a closer look

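Several values within Gcg+Ppy barcodes moved in opposite directions with genotype at 1 and at 6 months. There is 1 library per group, so these differences between ages were not tested. The share of high-Ppy barcodes that were Gcg+Ppy was 0.819 times the WT value in CCR2-DTR+/- mice at 1 month and 1.20 times at 6 months.

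The log2 ratio of CCR2-DTR+/- over WT was -0.17 at 1 month and 0.73 at 6 months for Fos. For Fosb it was -0.29 and 0.52, and for Jun -0.14 and 0.54, all 3 of them immediate early genes. Pcsk2, the convertase that makes glucagon, gave -0.14 and 0.19. St18, a zinc finger factor of islets, gave -0.46 and 0.43. Spp1, osteopontin, gave -1.49 and 0.38, and 166 of its 252 UMIs in the WT 1-month library came from 1 barcode.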

How the results depend on the processing

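The share of Gcg+Ppy barcodes followed the hormone limit: at 2% it was 3.95%, 2.76%, 4.54% and 3.39% of kept barcodes and at 10% 0.484%, 0.292%, 1.16% and 0.455% (WT and CCR2-DTR+/- at 1 month, then at 6 months), and 3.38% in WT at 6 months from 3000 UMIs. Of high-Ppy barcodes they made up 51.1%, 45.2%, 44.8% and 50.7% at 2%, and 10.8%, 8.90%, 17.0% and 12.5% at 10%. Observed over expected pairing was 0.869 in WT at 1 month at 2%, and 0.282, 0.223, 0.508 and 0.362 at 10%. Counts of genes higher than in alpha were 216 at 10%, 158 with no replicate block (no library term), 110 below the alpha median depth, 849 by total counts without Pyy and 306 without deep barcodes, and 363 to 389 with 1 library left out. Lower genes numbered 302 with DESeq2, 200 at 10%, 746 with no low-count filter, 102 with no replicate block, 103 below the median depth, 956 by total counts, 317 without Pyy, 265 without deep barcodes and 305 to 357 with 1 library left out. Against Ppy-only barcodes, higher genes were 355 at 10%, 350 with no replicate block, 241 below the median depth, 1189 by total counts and 496 to 608 with 1 library left out. Lower genes were 207 at 10%, 1009 at 2%, 193 with no replicate block, 123 below the median depth, 345 by total counts, 403 without deep barcodes and 396 to 496 with 1 library left out. With a floor of 20 CPM, genes past 2-fold numbered 74 higher and 66 lower for genotype at 1 month, 39 and 30 at 6 months, 52 and 72 with age in WT and 121 and 123 in CCR2-DTR+/-. With barcodes weighed equally the genotype counts were 21 higher and 10 lower for 1-month mice, 17 higher and 7 lower for 6-month mice, with 49 lower with age in CCR2-DTR+/-. Positions averaged 35.3 and 56.5 without deep barcodes, against 41.5 and 54.6 on the same scale without TMM. Fewer barcodes enter at 10%, below the median depth and without deep barcodes; the cause was not tested for the other settings.

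Single genes that changed sign were Hspb1 (-0.65), Ctrb1 (0.0603), Slitrk6 (-0.00447) and Try4 (0.0811) against alpha below the median depth, Cd74 (0.0826), C1qb (0.52) and Fcer1g (0.42) against alpha at 2%, Iapp against alpha at 10% (-0.62), and Rgs5 (-0.94) and Slc2a2 (0.12) against Ppy-only at 10%. Of the other single-gene values 3941 kept direction and side of the threshold, 410 lost the call, 89 gained it and 6 moved. With no replicate block, 44 of 68 called list members lost the call against alpha and 44 of 78 against Ppy-only. The low-count genes and the 80 to 165 barcodes per library limit the comparisons between libraries.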
